A study of Arabidopsis thaliana with 6 samples.

Results

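Small heat shock proteins are holdases: they bind proteins that begin to unfold and keep them soluble until the HSP70 and HSP101 chaperones refold them. Plants carry many such genes, and the proteins are sorted to the cytosol and nucleus, mitochondria, plastids, the endoplasmic reticulum or peroxisomes, so the family can be read by cell compartment. In unstressed vegetative tissue most of them are expressed at a low level, and heat shock factors raise many of them when proteins misfold.

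The 8 genes described here are the small heat shock protein genes of Arabidopsis thaliana whose values varied between arrays. A family list of 19 genes was used, of which 11 had a probe set paired with that gene alone. A probe set was called varying when its 6 values spanned more than 0.01 log2 units and flat otherwise, and 8 of the 11 varied. The choice therefore used the measured values, and it was made with earlier results of these data known. One of the 8 encodes a mitochondrial protein (AT5G51440), 1 a peroxisomal protein (AT5G37670), 1 a protein of the endoplasmic reticulum (ATHSP22.0, AT4G10250) and 5 encode proteins of the cytosol or nucleus (AT2G29500, AT1G53540, AT1G54050, AT4G21870 and AT2G19310). The values that chose them, the spans over the 6 arrays, ran from 0.676 log2 units for AT1G53540 to 5.29 for AT1G54050. The nearest gene on the other side of the threshold was AT1G52560, a further mitochondrial family member, with a span of 3.06e-07, followed by AT5G54660 with 1.1e-08 and AT5G47600 with 8e-09. Whether these 3 transcripts changed cannot be read from such values. The remaining 8 family genes, which include the only plastid one, HSP21, were not paired with a probe set of their own in the annotation used, which does not list 8730 of the tested probe sets. Of these remaining genes, 2 share a probe set, whose values are given with the cytosolic genes, and the others were not analysed here.

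Both groups were whole seedlings of the Col-0 wild type that stood upright on plates for 4 days, were sprayed and were then rotated by 90 degrees. The first group received 10 µM NJ15, a tetrazole acetic acid ethyl ester with a dichlorophenyl ring, and the second received mock solution. RNA was taken 8 h after rotation, and each group had 3 arrays, which the labels call biological replicates. Each array gave 1 value per probe set, on a scale read as log2 from its range of 5.30 to 14.04, and 22746 probe sets were tested. Of these, 16602 (73.0%) were flat and 6144 varied. Array medians lay between 7.26 and 7.27 with NJ15 and between 7.24 and 7.26 with mock. The mean of 4 photosynthetic marker genes was 11.00, 11.62 and 11.59 in the NJ15 arrays and 10.75, 11.44 and 12.06 in the mock arrays, so green tissue markers overlapped between the groups. Among them LHCB4.1, RCA and PRK differed by 0.12, -0.19 and -0.03 log2 units between NJ15 and mock means, and none passed the test described next. The 3 root markers with a probe set (EXPA7, EXPA18 and AT1G72490) were flat, so the root share of the seedlings was not analysed here.

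The comparison asked how each small heat shock protein transcript stood in NJ15 seedlings against mock seedlings. Every NJ15 array exceeded every mock array for 5 of the 8 genes, and these 5 came from 3 compartments: mitochondria, peroxisome and cytosol. Among all varying probe sets, 6.51% were placed in this way. Each of the 5 differed by more than 2-fold between group means, and 1.82% of the varying probe sets were both apart and at least 2-fold higher. The other 3 genes had overlapping groups, and none of the 8 lay below mock on every array, as 5.96% of the varying probe sets did. The median difference of the 8 was 1.60 log2 units, against -0.0062 over all varying probe sets. Because the genes were chosen for varying values and with results known, these counts are a description. In the fit across all probe sets (limma, Benjamini-Hochberg adjustment), none of the 8 passed an adjusted p of 0.05, which 0.193% of the probe sets did. Of those 44 probe sets 40 were flat, so this share says little about transcripts that varied. When limma was fitted to the varying probe sets only, it again called none of the 8, against 0.0651% of that set. At an unadjusted limma p under 0.05 there were 5 of the 8, against 5.51% of all and 7.28% of the varying probe sets. In RNA from whole seedlings, fewer cells of a type and less RNA per cell cannot be told apart.

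**Figure D1:**
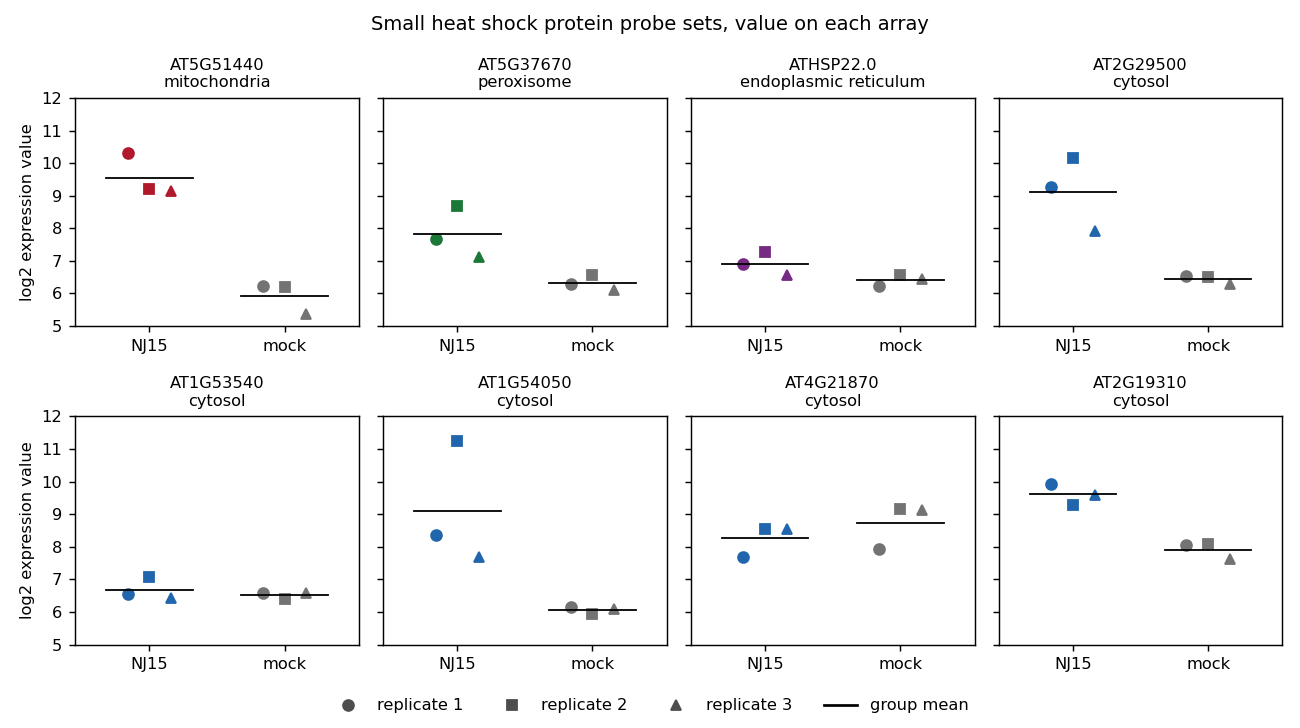
Value on each array for the 8 small heat shock protein probe sets, with NJ15 to the left of mock in each panel, the array values as points, replicate numbers as marker shapes, and group means as lines. The vertical axis is the log2 expression value. The groups are apart for AT5G51440, AT5G37670, AT2G29500, AT1G54050 and AT2G19310 and overlap for ATHSP22.0, AT1G53540 and AT4G21870.

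The mitochondrial gene AT5G51440, whose protein is imported into the matrix, had the widest difference between group means among the 8. Its log2 values were 10.30, 9.20 and 9.13 in the NJ15 arrays and 6.24, 6.19 and 5.36 in the mock arrays. The lowest NJ15 array stood 2.88 log2 units above the highest mock array. The means were 9.54 ± 0.66 with NJ15 and 5.93 ± 0.50 with mock (SD, n = 3 each), a difference of 3.61 with a standard error of 0.47. The difference did not pass over all probe sets (limma, adjusted p = 0.366), nor over varying probe sets alone (limma, adjusted p = 0.0965). In the fit over varying probe sets it was the only one of the 8 under an adjusted p of 0.1, which 0.407% of those probe sets reached. Mock replicate 3, at 5.36, was the lowest array, close to the lowest value of the whole table, 5.30. The other mock arrays lay close together. Without mock replicate 3 the difference was 3.33, and it ranged from 3.23 to 3.82 with any 1 array left out. Since signal over background is unknown, the size of a difference from so low a value is uncertain. Whether it is understated or overstated was not tested.

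AT5G37670 encodes the peroxisomal small heat shock protein, which carries an import signal at its C-terminal end. It stood at 7.68, 8.67 and 7.13 in the NJ15 arrays and at 6.28, 6.58 and 6.12 in the mock arrays. The groups were apart by 0.56 log2 units, the narrowest gap among the 5 genes with separate groups. The means were 7.83 ± 0.78 with NJ15 and 6.33 ± 0.23 with mock (SD, n = 3 each), a difference of 1.50 (standard error 0.46; limma, adjusted p = 0.817). Without NJ15 replicate 2, the highest array, the difference was 1.08.

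ATHSP22.0 encodes the family member that enters the endoplasmic reticulum. Its values were 6.90, 7.26 and 6.57 in the NJ15 arrays and 6.23, 6.57 and 6.44 in the mock arrays. NJ15 replicate 3 and mock replicate 2 were both at 6.57, so the groups overlapped, with the other 2 NJ15 arrays above every mock array. The means were 6.91 ± 0.34 with NJ15 and 6.41 ± 0.17 with mock (SD, n = 3 each). The difference of 0.49, with a standard error of 0.22, did not pass (limma, adjusted p = 0.830), and it was 0.32 without NJ15 replicate 2.

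The 5 cytosolic genes did not share 1 pattern: 3 had all NJ15 arrays above mock and 2 had overlapping groups, with differences from -0.48 to 3.03 log2 units. AT1G54050, of class III, a class also found in the nucleus, had the widest difference of the 5. Its values were 8.36, 11.24 and 7.69 in the NJ15 arrays and 6.15, 5.95 and 6.09 in the mock arrays. The mock arrays lay within 0.19 log2 units of each other, while the NJ15 arrays spanned 3.55. The means were 9.10 ± 1.89 with NJ15 and 6.06 ± 0.10 with mock (SD, n = 3 each), a difference of 3.03 (standard error 1.07; limma, adjusted p = 0.830). It was 1.96 without NJ15 replicate 2.

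AT2G29500 and AT1G53540 both encode class I proteins, the largest cytosolic class, yet their values differed in size. AT2G29500 stood at 9.26, 10.15 and 7.93 in the NJ15 arrays and at 6.54, 6.49 and 6.28 in the mock arrays. Every NJ15 array was at least 1.39 log2 units above every mock array. The means were 9.12 ± 1.12 with NJ15 and 6.44 ± 0.14 with mock (SD, n = 3 each), a difference of 2.68 (standard error 0.64; limma, adjusted p = 0.715). This difference was 2.16 without NJ15 replicate 2. AT1G53540 stood at 6.56, 7.06 and 6.43 in the NJ15 arrays and at 6.57, 6.39 and 6.58 in the mock arrays. Only NJ15 replicate 2 was above the mock arrays. Its difference was 0.17 (standard error 0.20; limma, adjusted p = 0.974) and turned to -0.02 without NJ15 replicate 2. The difference of AT2G29500 from the mock mean was the larger of the pair in all 3 NJ15 arrays, by 2.78, 3.17 and 1.58 log2 units. How probe binding contributes to this contrast was not tested.

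One further probe set bears on the cytosolic genes. It is paired with 2 family genes at once, both listed here as cytosolic, and is therefore attributed to neither. It had values of 9.42, 11.67 and 8.03 in the NJ15 arrays and of 5.70, 5.76 and 5.74 in the mock arrays. The groups were apart by 2.28 log2 units, and the difference of means was 3.98 (standard error 1.04; limma, adjusted p = 0.746). As for AT1G54050 and AT2G29500, NJ15 replicate 2 was the highest array and NJ15 replicate 3 the lowest of the treated arrays.

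AT2G19310, of class VI, had separate groups and a narrow spread within each. Its values were 9.93, 9.29 and 9.60 in the NJ15 arrays and 8.04, 8.08 and 7.61 in the mock arrays. The means were 9.61 ± 0.32 with NJ15 and 7.91 ± 0.26 with mock (SD, n = 3 each), a difference of 1.70 (standard error 0.24; limma, adjusted p = 0.400; adjusted p = 0.101 over varying probe sets).

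AT4G21870, of class IV, was the only one of the 8 with a lower mean in NJ15 seedlings. It stood at 7.69, 8.55 and 8.53 in the NJ15 arrays and at 7.93, 9.16 and 9.13 in the mock arrays. Replicate 1 was the lowest array in both groups, and the groups overlapped because mock replicate 1 lay below NJ15 replicates 2 and 3. The means were 8.26 ± 0.49 with NJ15 and 8.74 ± 0.70 with mock (SD, n = 3 each), a difference of -0.48 (standard error 0.49; limma, adjusted p = 0.943). It was -0.89 without mock replicate 1, -0.27 and -0.29 without mock replicates 2 and 3, and -0.20 without NJ15 replicate 1. Replicate 1 was also the array with the lowest mean of the photosynthetic markers in each group, at 11.00 with NJ15 and 10.75 with mock; the part of this in the result was not tested.

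**Figure D2:**
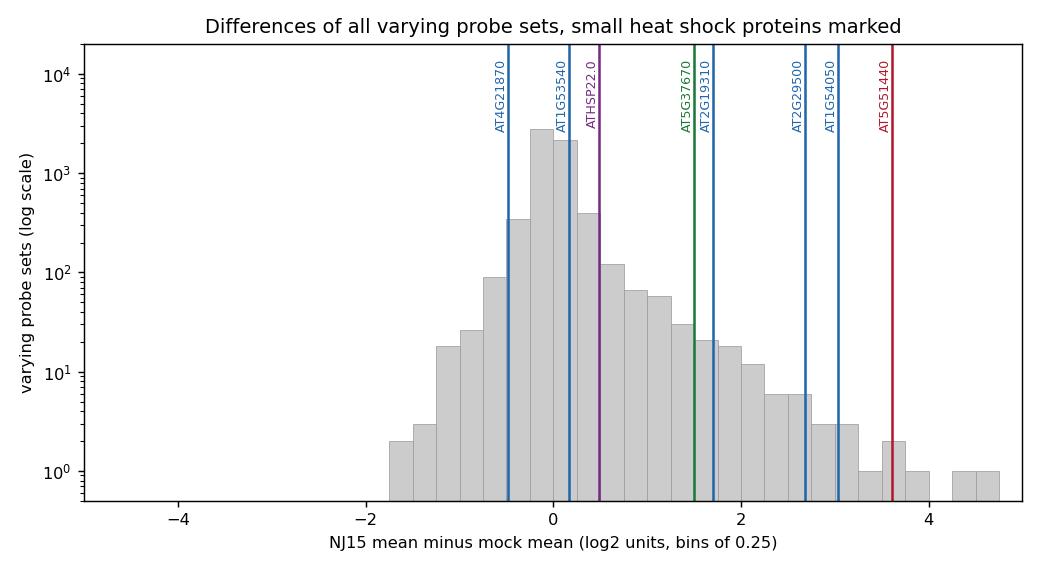
Number of varying probe sets (log scale) by the difference of the NJ15 mean minus the mock mean in log2 units, in bins of 0.25, with a vertical line for each of the 8 genes coloured by compartment (red mitochondria, green peroxisome, purple endoplasmic reticulum, blue cytosol). The lines run from -0.48 for AT4G21870 to 3.61 for AT5G51440, and 5 of the 8 stand at 1.50 or more.

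Set by compartment, the differences of means were 3.61 log2 units for the mitochondrial gene, 1.50 for the peroxisomal gene and 0.49 for the gene of the endoplasmic reticulum, with a median of 1.70 for the 5 cytosolic genes. The peroxisomal and endoplasmic reticulum values fell inside the range of the cytosolic genes, which ended at 3.03, and the mitochondrial value lay above it. The probe set shared by 2 cytosolic genes stood higher still, at 3.98. With 1 varying gene in each of the 3 organelles, compartments were not tested against each other. The order of the genes also depended on the array. Measured from its own mock mean, AT5G51440 had the largest difference of the 8 in NJ15 replicates 1 and 3, at 4.37 and 3.20 log2 units. In NJ15 replicate 2 it stood at 3.27, behind AT1G54050 at 5.18 and AT2G29500 at 3.72. AT5G37670 took position 5, 4 and 5 in NJ15 replicates 1, 2 and 3. The lowest 3 places went to ATHSP22.0, AT1G53540 and AT4G21870, in that order, in all 3 NJ15 arrays.

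**Figure D3:**
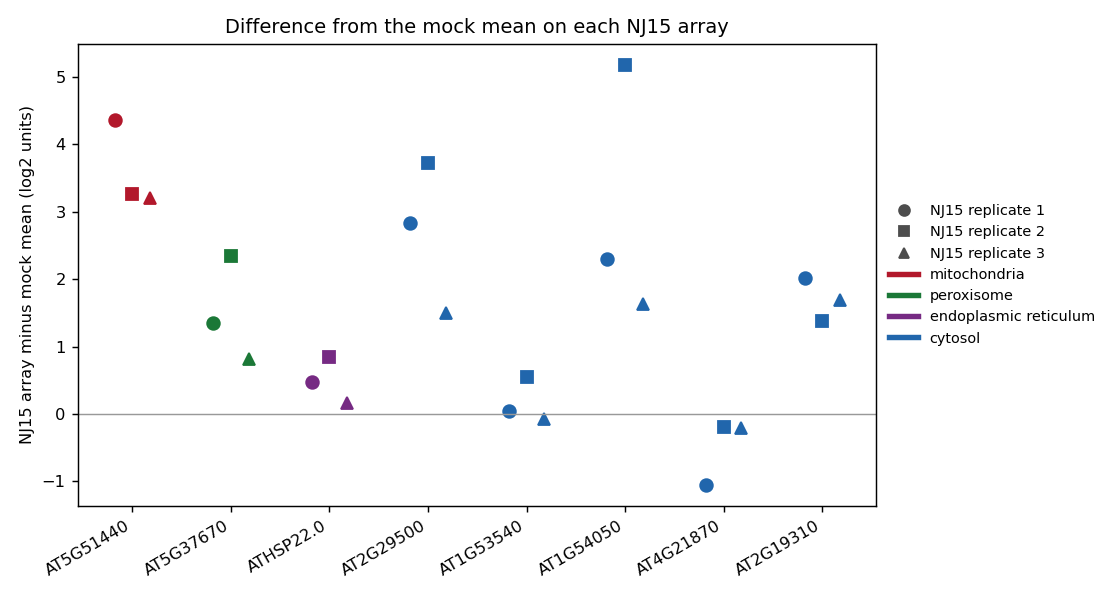
Difference of each NJ15 array from the mock mean of the same probe set, in log2 units, for the 8 genes; marker shape gives the NJ15 replicate and colour the compartment. Replicate 2 (squares) is highest for AT5G37670, ATHSP22.0, AT2G29500, AT1G53540, AT1G54050 and AT4G21870, while replicate 1 (circles) is highest for AT5G51440 and AT2G19310.

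The order of the treated arrays differed between the genes, with 4 orders among the 8. In 5 genes the order was NJ15 replicate 2, then 1, then 3: AT5G37670, ATHSP22.0, AT2G29500, AT1G53540 and AT1G54050, which belong to the peroxisome, the endoplasmic reticulum and the cytosol. Over all varying probe sets, 15.1% had this order. Among the 112 varying probe sets with NJ15 apart and at least 2-fold higher, 42.0% did. AT5G37670, AT2G29500 and AT1G54050 are in this set with that order, and AT5G51440 and AT2G19310 are in it with other orders. ATHSP22.0 and AT1G53540, whose groups overlapped, are outside it. AT5G51440, which is mitochondrial, had the order 1, 2, 3, and the cytosolic AT2G19310 had the order 1, 3, 2. AT4G21870 had the order 2, 3, 1. The NJ15 arrays spread more widely than the mock arrays in 7 of the 8 genes, all but AT4G21870. Over all varying probe sets 27.8% did so, but these were not matched to the genes by mock level or by difference. Of the 7 genes, all but AT2G19310 had a low mock mean, from 5.93 for AT5G51440 to 6.51 for AT1G53540. The mock array medians were 7.24 to 7.26, and the mock mean of AT2G19310 was 7.91. Whether low signal narrowed the mock spreads was not tested. For AT5G51440 the spreads were 1.18 log2 units with NJ15 and 0.89 with mock, and for AT2G29500 they were 2.22 with NJ15 and 0.26 with mock.

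Correlations over the 6 arrays are given as a description and were not used to test whether these orders differ. All pairs share the same 6 arrays. Where both genes differed between the groups, high values arise from that difference too. AT1G53540 differed by only 0.17, and only its NJ15 replicate 2 array lay above the mock arrays. AT5G51440 and AT2G19310, from different compartments, had a Pearson r of 0.99. The 10 pairs among the 5 genes with the order 2, 1, 3 had r from 0.69 to 0.98. Some pairs across the orders reached like values, such as 0.89 for AT5G51440 with AT2G29500 and 0.84 for AT2G19310 with AT2G29500. Others were lower, such as 0.31 for AT5G51440 with AT1G53540 and 0.21 for AT2G19310 with AT1G53540. The 10 pairs of cytosolic genes ran from -0.57 to 0.96, and the 18 pairs across compartments from -0.59 to 0.99. All 7 pairs that hold AT4G21870 were below 0, from -0.59 to -0.11.

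Other genes with like patterns were taken from 590 varying single-gene probe sets outside the family that spanned at least 1 log2 unit, by Pearson r over the 6 arrays. For AT5G51440 these were AT4G30490 (r = 0.981), AT5G54940 (r = 0.978) and AT5G48570, the immunophilin ROF2 (r = 0.972). For AT2G19310 they were AT3G14200 (r = 0.991), AT4G30490 (r = 0.986) and AT3G09440, a cytosolic HSP70 (r = 0.984). PUB19, a U-box ubiquitin ligase, appeared for 3 genes: it was nearest to AT2G29500 (r = 0.985) and AT5G37670 (r = 0.955), and among the first 3 for AT1G54050 (r = 0.953). AT1G61890 was nearest to AT1G54050 (r = 0.972), and AT3G23170 was among the first 3 for both AT2G29500 (r = 0.976) and AT1G54050 (r = 0.953). AT2G29500 also had AT3G19240 (r = 0.981), and AT5G37670 had AT3G57880 (r = 0.955) and AT5G42050 (r = 0.954). ATHSP22.0 was nearest to TIL, a temperature-induced lipocalin, and SUFE2 (both r = 0.909), then AT1G28600 (r = 0.899). AT1G53540 was nearest to WRKY22, a WRKY transcription factor (r = 0.956), AT1G25400 (r = 0.939) and CML37, a calmodulin-like protein (r = 0.931). AT4G21870 was nearest to AT3G22210 (r = 0.956), AT5G03350 (r = 0.948) and AT2G21385 (r = 0.944). With 6 arrays and 590 candidates high values are common, and nothing is read from the names.

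Other chaperones of each compartment were taken from lists, most of whose genes were not paired with a probe set of their own in the annotation used. Of 23 cytosolic chaperones and co-chaperones, 9 had one and 7 varied. The groups were apart, with NJ15 higher, in 6 of these 7, against 6.51% of all varying probe sets. The median difference of the 7 was 1.92. This list was chosen with earlier results of these data known, so the count is a description. One passed over all probe sets: Hop3, which links HSP70 and HSP90, at 8.68, 8.78 and 8.57 in the NJ15 arrays and 6.53, 6.73 and 6.69 in the mock arrays, which gave a difference of 2.03 (standard error 0.0839; limma, adjusted p = 0.0456). Hop3 lost this call after quantile normalization (limma, adjusted p = 0.0735), without probe sets of low mean (0.0653), with an intensity trend and robust prior (0.0711), with the replicate block (0.554) and with any 1 array left out (0.109 to 0.172), while its difference stayed between 1.97 and 2.08. Over the varying probe sets only, the adjusted p of Hop3 was 0.00533 (limma). Fes1A, an exchange factor of cytosolic HSP70, and ROF2 (AT5G48570) differed by 1.92 and 2.62 and did not pass over all probe sets (limma, adjusted p = 0.0862 and 0.154). Over the varying probe sets only, Fes1A passed (limma, adjusted p = 0.0463) and ROF2 (AT5G48570) did not (adjusted p = 0.0509). The difference of Hop3 was smaller than that of AT2G29500, but its standard error was 0.0839 against 0.64.

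Of 21 mitochondrial chaperones and stress genes, 4 had a probe set of their own and 2 varied, with overlapping groups. AT2G21640, a mitochondrial protein induced by oxidative stress, stood at 9.92, 9.24 and 6.95 in the NJ15 arrays and at 8.41, 6.55 and 5.95 in the mock arrays. Its difference of 1.73 was not past the test (standard error 1.15; limma, adjusted p = 0.938). AT5G64870, a flotillin-like protein and so a membrane protein rather than a chaperone, differed by 1.03 (limma, adjusted p = 0.924). Its place in this list does not give the location of its protein, so it is not read as a value for the mitochondria. Mock replicate 1 was the highest mock array for both, as it was for AT5G51440, there narrowly at 6.24 against 6.19 in mock replicate 2. It was also the highest for the cytosolic AT2G29500 and AT1G54050, and not for the rest of the 8 genes. This trait was therefore not particular to the mitochondrial genes.

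Of 22 chaperones and stress regulators of the endoplasmic reticulum, 8 had a probe set of their own and 4 varied, with a median difference of 0.07. BZIP28, a membrane-bound transcription factor of the unfolded protein response, had its NJ15 arrays above mock with a difference of 0.30 (limma, adjusted p = 0.830). CRT1b, a calreticulin, and BZIP60, a second regulator of that response, had overlapping groups and differed by -0.03 and 0.06 (limma, adjusted p = 0.933 and 0.992). ATHSP22.0, at 0.49, had overlapping groups as well. Of 24 peroxisomal genes 2 had a probe set of their own, and HPR, a hydroxypyruvate reductase of photorespiration, was the varying one, with a difference of -0.14 and overlapping groups (limma, adjusted p = 1). No heat shock factor of the 22 listed factors and regulators and none of the 9 plastid chaperones was paired with a probe set of its own by the annotation used, in which 8730 tested probe sets were not listed, so neither group was analysed here.

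**Figure D4:**
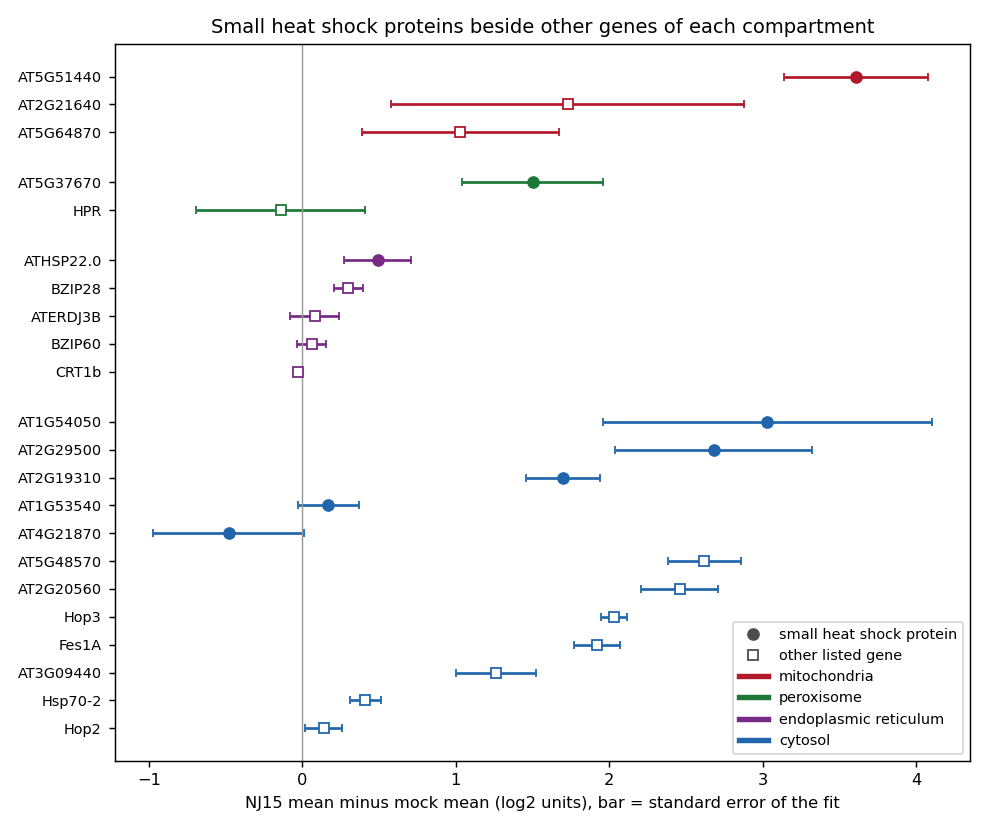
Difference of the NJ15 mean minus the mock mean in log2 units, with the standard error of the limma fit as bars, for the small heat shock proteins (filled circles) and for other varying listed genes (open squares), grouped by compartment. In the cytosol 3 of the 5 small heat shock proteins and 6 of the 7 other genes have NJ15 above mock on every array. Of all varying probe sets 6.51% do. In the endoplasmic reticulum all 5 genes lie between -0.03 and 0.49. Other genes are placed by the list they came from, so AT5G64870 stands with the mitochondria.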

How the data were processed

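Per the labels' protocols, biotin-labelled RNA from total RNA was prepared with an Affymetrix kit for 3 prime transcription. The submitters' processing notes name R 2.7.2, while background correction, normalization and summarization were not given in the sources used here. Values that the authors deposited were taken as log2 expression from their range. They were used without further scaling, and the 64 control probe sets were left out. Why most probe sets are flat was not tested, and differences of varying ones may be affected by the same step. Signal over background is unknown, and precision is limited by having 3 arrays a group.

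To remove rounding noise, the value on the first array was subtracted and the remainder rounded to the decimals deposited. Models were fitted in limma 3.58.1 under R 4.3.3 (lmFit, eBayes, two-sided, Benjamini-Hochberg over 22746 probe sets, threshold 0.05). On simulated data with independent noise, the fit over all probe sets made more false calls than the fit over varying probe sets only. The simulated data are not used to back any call. Gene names came from the platform annotation, matched to loci of assembly TAIR10.1 for names only: 13513 tested probe sets had 1 gene, 503 several and 8730 were not listed. Of several probe sets for 1 gene, that of highest mean was kept. All 8 genes, up to 3 varying genes of each list with the smallest p, and the 3 nearest patterns per gene were named; AT5G64870, AT2G21640 and HPR were the only varying genes of their lists. Alternatives were other scalings, filters and priors, the replicate number as a block, and single arrays left out. The genes and lists were chosen with earlier results of these data known, and compartments come from general knowledge of the family. Figures were drawn with matplotlib 3.10.9.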

Additional observations from a re-analysis of the deposited data

Results flagged for a closer look

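A probe set outside the 8 genes, paired with 2 cytosolic family genes and attributable to neither, stood 3.98 log2 units above mock in the NJ15 arrays, at 9.42, 11.67 and 8.03 against 5.70, 5.76 and 5.74. It is singled out because this signal lies in a probe set that no single gene of the comparison uses. Its difference did not pass (limma, adjusted p = 0.746). With 3 arrays a group, no array was tested as an outlier.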

How the results depend on the processing

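None of the 8 genes passed with the deposited values (limma, 5 at an unadjusted p under 0.05). With each array centred on a shared median, 5 passed, the same 5 whose groups were apart: AT5G51440, AT5G37670, AT2G29500, AT1G54050 and AT2G19310, with differences of 3.59, 1.48, 2.66, 3.02 and 1.68. That setting called 17165 probe sets in all, 16929 of them lower, and moved the median of all probe sets to -0.018, so the passes are not read as a result about these genes. Calls over all probe sets, 44 with the deposited values, were 0 after quantile normalization, 1 without probe sets of low mean, 4 over varying probe sets only, 0 with an intensity trend and robust prior, 0 with the replicate block and between 4 and 15 with 1 array left out. At these settings limma called 0 of the 8, with 3 to 6 at an unadjusted p under 0.05. Where all 22746 probe sets were fitted, between 886 (intensity trend and robust prior) and 3347 (quantile normalization) of them were under it. Over varying probe sets only, 473 of 6144 were. The count of 5 genes with separate groups was 5 or 6 in every setting where it was computed. It does not apply to the replicate block. Filters kept all 8 genes and, like priors, did not change their values, and leaving out an array cannot make separate groups overlap. In those settings the count could not fall, so it is not read as a check. With quantile normalization and with centring on the shared median, where it could change, it was 5. In direction, AT1G53540 turned to -0.02 without NJ15 replicate 2 and ranged up to 0.30 with other arrays left out, and no other difference changed sign. Deviations of same-numbered arrays from their group means correlated with r = 0.586, -0.305 and 0.192 for numbers 1, 2 and 3. For arrays of different number, r ran from -0.523 to 0.417. Deviations within a group are not independent, so these values do not settle pairing. The labels do not state that the numbers pair samples, so they were not taken as pairs. With the replicate block, AT4G21870 had a standard error of 0.12 in place of 0.49 (limma, unadjusted p = 0.0497, adjusted p = 0.846). In that setting AT1G54050 had an unadjusted p of 0.104 (limma). The genes under 0.05 were therefore not the same as with the main fit. The search for heat shock promoter motifs was not run, because no promoter sequence was used here.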
